A study of Mus musculus with 9 samples.

Results

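Ligands of the TGF-β and activin branch, and the secreted proteins that hold them, were compared by mRNA level in MEFs of 3 genotypes. The set has 10 members, named by symbol: the TGF-β ligands Tgfb1, Tgfb2 and Tgfb3, the latent TGF-β binding proteins Ltbp1, Ltbp2, Ltbp3 and Ltbp4, the activin β subunits Inhba and Inhbb, and the activin antagonist Fst. Each of the 10 had a single probe set on the array with 1 gene symbol, among 19938 genes tested in all, so no choice between probe sets arose. The rule that picks them uses names and no measured value, although earlier results of these arrays were known when the set was drawn up.

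MEFs are fibroblast cultures grown from mouse embryos, here on a background labelled C57B/L6 and labelled as transformed by T antigen, a viral oncoprotein used to immortalise cells. RNA was hybridised to Affymetrix Gene ST arrays, 3 arrays for each genotype. DM MEFs were mutated in both ERO1 isoforms, the thiol oxidases ERO1α and ERO1β of the endoplasmic reticulum, and TM MEFs in addition lacked PRDX4, a peroxiredoxin of the same compartment. The labels call the controls wild type (WT), whereas the methods describe control MEFs in general as heterozygous for the Ero1α mutation (m/+) and homozygous for that of Ero1β (m/m), with intact Prdx4 (+/+). There DM MEFs are m/m at both Ero1 loci with Prdx4 +/+, and TM MEFs are m/m at both with Prdx4 m/y, a male genotype. Under that description all MEFs shared the Ero1β mutation, and the sources used here do not settle which description holds for the arrayed controls. The Ero1 alleles were gene traps, which can leave part of a transcript, and the methods use primary MEFs in some experiments and immortalised ones in others. Whether the 3 arrays of each genotype stand for separate cultures or embryos is stated neither in the labels nor in the methods, so p-values measure only the spread between arrays, which may be technical.

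TGF-β is made as a precursor that is cut by furin-like proteases and stays bound to its own propeptide, which keeps it inactive. LTBP1, LTBP3 and LTBP4 are joined to that propeptide by disulphide bonds formed in the endoplasmic reticulum and tether the latent complex to fibrillin and fibronectin in the extracellular matrix, from which integrins, proteases and thrombospondin can release it. Activins are dimers of inhibin β subunits, are neutralised by follistatin, and signal like TGF-β through type I and type II receptor kinases to SMAD2 and SMAD3. Fibroblasts make and store these ligands and respond to them with matrix production.

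Levels are log2 values after RMA, a method that corrects background, brings arrays to a common distribution and summarises the probes of a gene, and differences are given on the same log2 scale. Calls of higher or lower needed a change over 1.5-fold and a p from limma under 0.05 after Benjamini-Hochberg adjustment over all 19938 genes. Array medians lay between 7.62 and 7.72, and each of the 10 genes was above the array median on all 9 arrays, by least for Inhbb (0.48) and Tgfb2 (0.63). Of 11 fibroblast markers, 9 were above the median on all arrays, and their mean level was 10.70 to 10.73 in WT, 10.44 to 10.45 in DM and 11.25 to 11.34 in TM MEFs. Against WT, 2 of them rose in DM, Pdgfrb by 1.18 and Dcn by 1.14. In DM 3 fell, with differences of -1.71 for Col1a2, -1.91 for Pdgfra and -2.28 for S100a4. In TM 4 rose, Thy1 by 2.93, Lum by 2.06, Dcn by 1.83 and Pdgfrb by 1.23, and 1 fell, S100a4 at -1.46. Over all genes tested, 5.28% rose and 5.67% fell in DM against WT, and 5.59% and 3.56% in TM. Markers of other cells moved with genotype too: the mean level of 12 epithelial and mesothelial markers was 7.85 to 7.88 in WT, 9.65 to 9.70 in DM and 7.30 to 7.41 in TM MEFs, and that of 7 smooth muscle and pericyte markers was 8.30 to 8.38, 8.11 to 8.15 and 8.99 to 9.09. The X-linked RNA Xist stood at 5.70 in WT, 12.56 in DM and 5.72 in TM MEFs, and the Y-linked Uty, Kdm5d and Eif2s3y differed from WT by -1.74, -1.49 and -2.01 in DM, so sex and genotype cannot be told apart for DM. Uty stood at 10.13 in WT and 10.17 in TM. Prdx4 is X-linked, and the study lists Prdx4 +/+ mice as female and +/y mice as male. By these RNAs the WT arrays were male, so they do not match the Prdx4 +/+ written for control MEFs in the methods. The sex-linked RNAs do not bear on the Ero1α and Ero1β genotypes of the arrayed controls. Ero1a differed from WT by -2.40 in DM and -2.80 in TM, Prdx4 by -4.26 in TM, and Ero1b differed by 0.05 and 0.29 and was not called. Ero1b stood at 7.65 in WT, 7.7 in DM and 7.94 in TM, near the array medians of 7.62 to 7.72. The study, citing earlier work, describes the ERO1β protein as below detection in these cells. With so low a signal, the missing call for Ero1b does not bear on the Ero1β genotype of the arrayed controls either.

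Upstream sequence was available here for 8 of the 10 genes, from RefSeq on GRCm38.p6. The 150 bases before the annotated start are shown for 3 genes with contrasting profiles over the genotypes, Tgfb2 with its peak in DM, Inhba with its trough in DM and Ltbp2 with a step up in each mutant. Capitals mark a CACGTG E-box, and the sequences run 5′ to 3′ on the strand of the gene.
Tgfb2, chr1:186705990-186706139, minus strand: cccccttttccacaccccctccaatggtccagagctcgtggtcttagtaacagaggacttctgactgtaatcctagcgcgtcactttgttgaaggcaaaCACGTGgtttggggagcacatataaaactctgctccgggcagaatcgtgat
Inhba, chr13:16011701-16011850, plus strand: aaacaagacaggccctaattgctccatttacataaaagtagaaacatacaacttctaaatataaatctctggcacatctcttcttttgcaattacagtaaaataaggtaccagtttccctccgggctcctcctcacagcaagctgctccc
Ltbp2, chr12:84876492-84876641, minus strand: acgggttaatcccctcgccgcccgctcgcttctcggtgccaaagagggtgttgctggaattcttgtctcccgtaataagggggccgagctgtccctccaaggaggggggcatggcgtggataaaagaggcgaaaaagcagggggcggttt

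A search of both strands from 250 bases before to 50 after the start covered 32851 windows of all genes. The E-box CACGTG, present in 7.15% of windows, was found in Tgfb2, 51 bases before the start. The AP-1 motif TGAGTCA, present in 5.20% of windows, was found in Ltbp3, 6 bases before the start, and the CRE TGACGTCA, present in 1.79%, in 1 start of Ltbp1, 73 bases before it. The palindromic SMAD motif GTCTAGAC, present in 0.213%, was found in none of the 8 genes, which says only that these letters are not in these windows. A match is a description and not a binding site, and the windows of the 3 genes shown held 54.3% G and C in Tgfb2, 47.7% in Inhba and 61.0% in Ltbp2.

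Taking all 10 genes, 4 rose and 1 fell in DM against WT, while 5.28% of all genes tested rose and 5.67% fell. In TM against WT, 4 rose and 1 fell, beside 5.59% and 3.56% of all genes. In TM against DM, 3 rose and 2 fell, beside 4.68% and 3.61% of all genes. The median difference of the 10 genes was 0.061 in DM against WT, where that of all genes was 0.025, and 0.31 against -0.029 in TM. Between the mutants the medians were 0.109 for the 10 genes and -0.046 for all genes. Tgfb2, Tgfb3 and Ltbp2 rose in both mutants, and Tgfb1, Ltbp1 and Inhbb were called in no comparison. DM and TM were compared with the same WT arrays, so their differences from WT are not independent of each other.

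**Figure D1:**
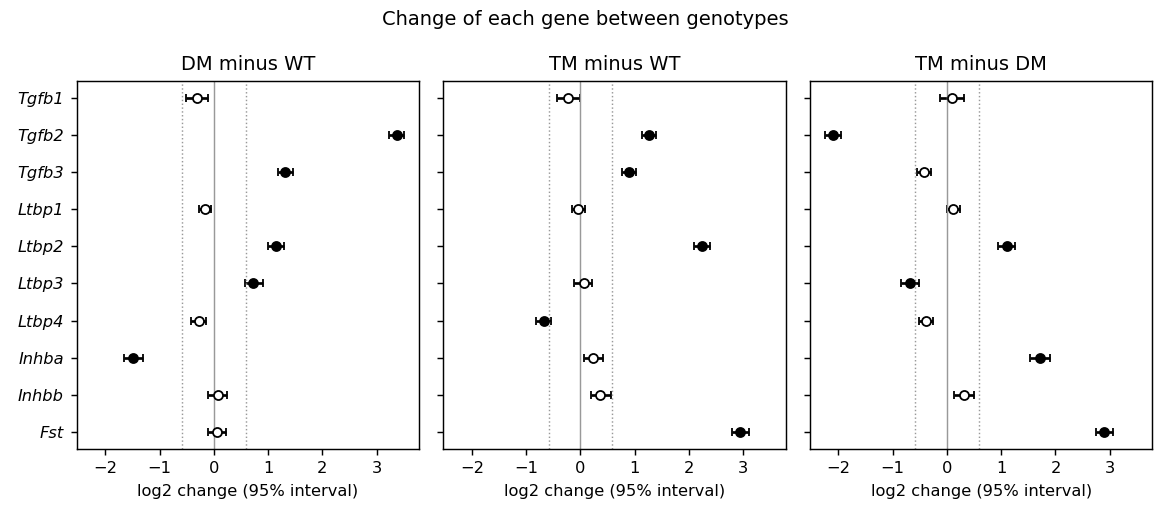
Difference in log2 level of each of the 10 genes (horizontal axis) between DM and WT, TM and WT, and TM and DM MEFs, with 95% intervals from limma (3 arrays per genotype); filled points were called, and dotted lines mark 1.5-fold. Tgfb2 at 3.37 is the largest rise in DM and Fst at 2.95 the largest in TM, whereas Inhba lies at -1.48 in DM and 0.24 in TM.

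The TGF-β ligands differed in how they changed. Tgfb2 and Tgfb3 rose in both mutants, more in DM than in TM, and Tgfb1 was called in neither. In bulk RNA, a change in the share of expressing cells and a change in RNA per cell cannot be told apart. The study singled out the TGF-β pathway in an analysis of these same arrays, so the direction of its genes here is not independent evidence. The study also measured mRNAs of the pathway by real-time PCR in MEFs and in skin. It reports a subset as elevated in the skin of DM mice, and those measurements were not used here.

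Tgfb1, the TGF-β form most widely made by adult cells, stood at 10.86, 10.79 and 10.68 on the WT arrays, at 10.72, 10.38 and 10.30 on the DM arrays and at 10.60, 10.61 and 10.48 on the TM arrays. The highest DM array lay within the WT values, while all TM arrays lay below all WT arrays by a narrow margin. Its difference from WT was -0.31 in DM (SE 0.0977, 95% interval -0.52 to -0.10, adjusted p = 0.0252 from limma), which is under the 1.5-fold limit, and -0.22 in TM (adjusted p = 0.122 from limma). DM and TM overlapped, with a difference of 0.09 (adjusted p = 0.495 from limma).

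Tgfb2 is an isoform with developmental roles in heart, palate and eye, and its propeptide lacks the integrin-binding RGD sequence found in those of the other TGF-β isoforms. Its level was 8.26, 8.31 and 8.37 in WT, 11.65, 11.80 and 11.59 in DM and 9.58 on each of the 3 TM arrays. The genotypes formed 3 separate steps, with TM between WT and DM. DM exceeded WT by 3.37 (SE 0.0633, 95% interval 3.23 to 3.50, adjusted p = 8.88e-13 from limma), 10.3-fold, which ranked 52 among all rises. TM exceeded WT by 1.26, 2.40-fold (adjusted p = 8.22e-09 from limma), and differed from DM by -2.1, 4.29-fold (95% interval -2.24 to -1.96, adjusted p = 8.39e-11 from limma). The 3 TM values are identical in the deposited table, as are those of some genotype in 754 genes, so the spread of Tgfb2 among TM arrays is understated and equals 0.

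Tgfb3, which acts in palate fusion, was at 10.76, 10.79 and 10.82 in WT, 12.11, 12.09 and 12.15 in DM and 11.80, 11.67 and 11.61 in TM MEFs. Again no genotype overlapped another, and TM lay between the others, nearer to DM. The rise was 1.32 in DM (95% interval 1.19 to 1.46, adjusted p = 2.81e-09 from limma), 2.50-fold, and 0.90 in TM (95% interval 0.77 to 1.03, adjusted p = 1.26e-07 from limma), 1.87-fold. The TM arrays differed from the DM arrays by -0.42, 1.34-fold, which passed the p threshold (adjusted p = 0.000147 from limma) but not the fold limit.

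Within each array, the level of one isoform was subtracted from that of another to compare how far they changed. Tgfb2 changed relative to Tgfb1 by 3.68 in DM and 1.48 in TM against WT, and Tgfb3 relative to Tgfb1 by 1.63 and 1.12. Tgfb2 outran Tgfb3 by 2.04 in DM and by 0.36 in TM. In each of these the arrays of the genotypes did not overlap, and the exact two-sided permutation p was 0.1, the smallest that 3 arrays against 3 allow, or 0.107 after adjustment over the 15 comparisons of this kind. Relative to Tgfb3, Tgfb2 changed by -1.68 from DM to TM, with the same exact p of 0.1.

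**Figure D2:**
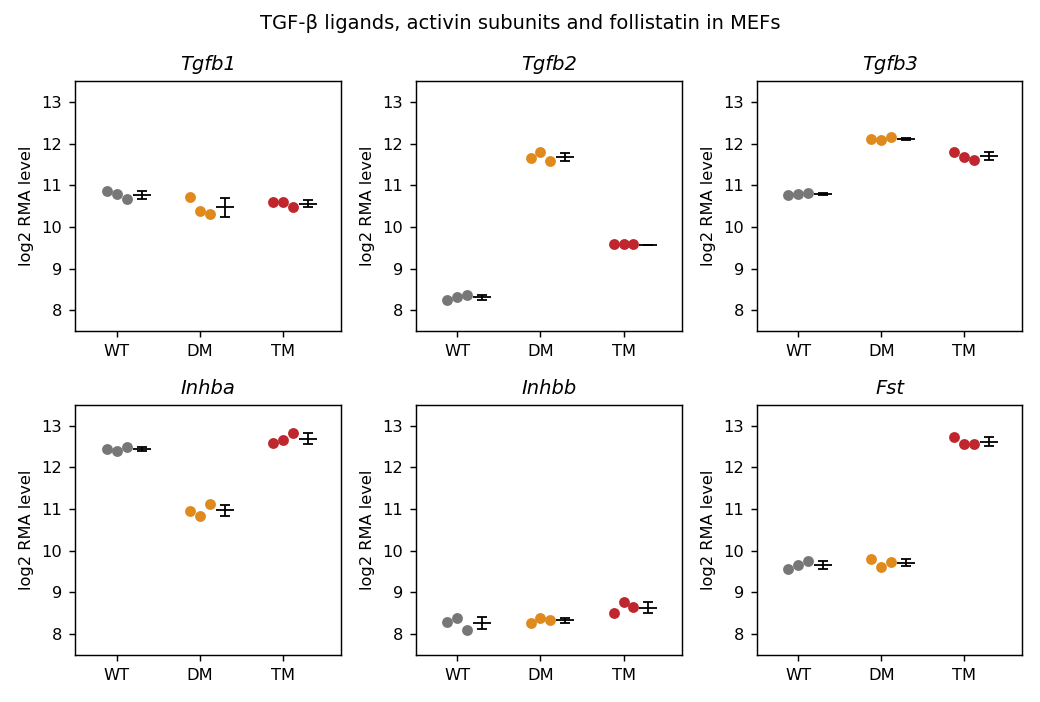
Log2 RMA level (vertical axis) of the TGF-β ligands, activin β subunits and follistatin on each array of WT, DM and TM MEFs; points are arrays and bars the mean ± SD of 3 arrays. Tgfb2 forms 3 steps, Inhba is low only in the DM arrays at 10.84 to 11.11, and Fst is high in the TM arrays at 12.55 to 12.73.

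The latent TGF-β binding proteins moved separately, with each of the 4 showing its own pattern over the genotypes. Ltbp1 was called nowhere, Ltbp2 rose in both mutants, Ltbp3 rose in DM and Ltbp4 fell in TM MEFs.

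Ltbp1, a main carrier of latent TGF-β1 in fibroblast matrix, was at 12.22, 12.27 and 12.33 in WT, 12.09, 12.11 and 12.12 in DM and 12.26, 12.22 and 12.21 in TM. DM arrays lay just under the others without overlap, and TM overlapped WT. The difference from WT was -0.17 in DM (adjusted p = 0.0289 from limma, 1.12-fold) and -0.04 in TM (adjusted p = 0.651 from limma).

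Ltbp2, the member of the family that does not bind latent TGF-β and that associates with elastic microfibrils, was at 9.52, 9.52 and 9.62 in WT, 10.70, 10.72 and 10.67 in DM and 11.82, 11.90 and 11.66 in TM. The order WT, DM, TM held with no overlap, in steps of similar size. The rise was 1.14 in DM (SE 0.0677, adjusted p = 3.69e-08 from limma), 2.21-fold, and 2.24 in TM (95% interval 2.09 to 2.39, adjusted p = 8.09e-11 from limma), 4.73-fold. TM exceeded DM by 1.10 (95% interval 0.95 to 1.25, adjusted p = 7.18e-08 from limma).

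Ltbp3, which binds latent TGF-β and is needed for normal bone and tooth development, was at 11.10, 11.26 and 11.18 in WT, 11.96, 11.97 and 11.82 in DM and 11.36, 11.25 and 11.10 in TM. DM stood alone above the others, and TM and WT covered nearly the same values. It rose by 0.73 in DM (95% interval 0.57 to 0.90, adjusted p = 6.66e-06 from limma), 1.66-fold, and TM differed from WT by 0.06 (95% interval -0.11 to 0.22, adjusted p = 0.658 from limma). TM differed from DM by -0.68 (95% interval -0.84 to -0.51, adjusted p = 1.72e-05 from limma), 1.60-fold.

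Ltbp4, which binds latent TGF-β1 weakly and serves elastic fibre assembly, was at 9.95, 9.87 and 9.99 in WT, 9.68, 9.65 and 9.63 in DM and 9.35, 9.27 and 9.17 in TM. It stepped down in the order in which Ltbp2 stepped up, again without overlap. The difference of -0.28 in DM passed the p threshold (adjusted p = 0.00277 from limma) but was 1.22-fold. The fall in TM was -0.67 (95% interval -0.81 to -0.54, adjusted p = 2.54e-06 from limma), 1.60-fold. TM differed from DM by -0.39, 1.31-fold (adjusted p = 0.000326 from limma). The calls of Ltbp3 and Ltbp4, and that of Tgfb3 in TM, were lost at a 2-fold limit.

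**Figure D3:**
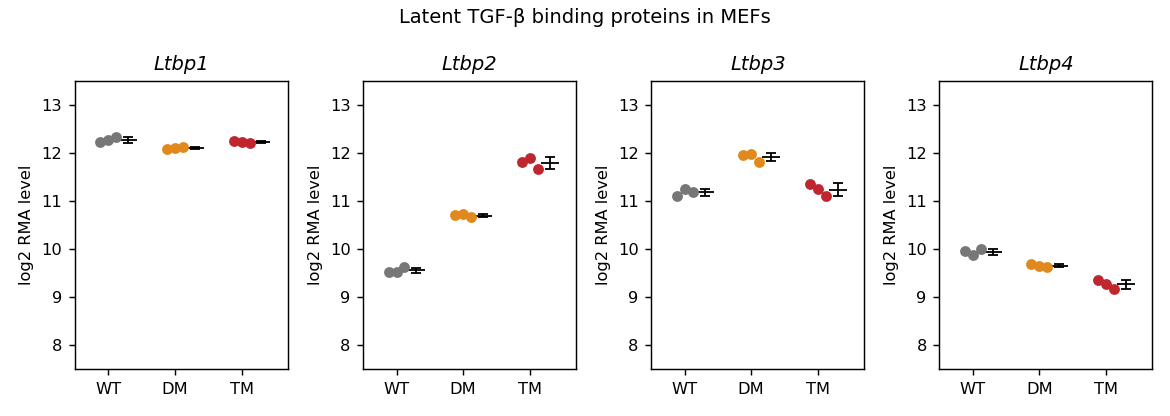
Log2 RMA level (vertical axis) of the latent TGF-β binding proteins on each array of WT, DM and TM MEFs; points are arrays and bars the mean ± SD of 3 arrays. Ltbp2 steps up from 9.52 to 9.62 in WT to 11.66 to 11.90 in TM, Ltbp4 steps down, and Ltbp3 is high in the DM arrays.

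In the activin group, Inhba fell in DM MEFs and Fst rose in TM MEFs, so the ligand subunit and its antagonist were each called against WT in a different mutant. Inhba encodes βA, the subunit of activin A. It was at 12.44, 12.39 and 12.49 in WT, 10.95, 10.84 and 11.11 in DM and 12.58, 12.66 and 12.82 in TM. The DM arrays stood far below both others, and the TM arrays a little above WT, with no overlap. DM differed from WT by -1.48 (95% interval -1.65 to -1.30, adjusted p = 1.75e-08 from limma), 2.78-fold. TM differed from WT by 0.24 (95% interval 0.07 to 0.42, adjusted p = 0.0357 from limma), 1.18-fold and not called, and exceeded DM by 1.72 (95% interval 1.54 to 1.90, adjusted p = 5.18e-09 from limma), 3.30-fold.

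Inhbb encodes βB, the subunit of activin B. It was at 8.30, 8.38 and 8.10 in WT, 8.27, 8.38 and 8.34 in DM and 8.50, 8.77 and 8.64 in TM. DM overlapped WT, and TM lay above both. The difference from WT was 0.07 in DM (95% interval -0.11 to 0.25, adjusted p = 0.578 from limma) and 0.37 in TM (95% interval 0.19 to 0.56, adjusted p = 0.00375 from limma), 1.30-fold and not called. TM exceeded DM by 0.31, also under the fold limit (adjusted p = 0.0135 from limma).

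Fst encodes follistatin, a secreted protein that wraps activin and blocks its receptor contacts. It was at 9.57, 9.66 and 9.75 in WT, 9.80, 9.62 and 9.73 in DM and 12.73, 12.55 and 12.56 in TM. WT and DM covered the same values, and all TM arrays were far above them. TM exceeded WT by 2.95 (SE 0.074, 95% interval 2.79 to 3.11, adjusted p = 1.64e-11 from limma), 7.73-fold, and DM by 2.90 (95% interval 2.74 to 3.06, adjusted p = 2.11e-11 from limma), 7.45-fold. DM differed from WT by 0.05 (95% interval -0.11 to 0.22, adjusted p = 0.616 from limma).

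Within arrays, Inhba changed relative to Fst by -1.53 in DM and by -2.71 in TM against WT, each with an exact two-sided permutation p of 0.1, the smallest possible. The first came with a fall of Inhba and the second with a rise of Fst. Inhba changed relative to Inhbb by -1.54 in DM (exact p = 0.1) and by -0.13 in TM (exact p = 0.5).

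The members called in DM moved beside marker genes of other cells and beside the sex-linked RNAs. Against WT, 7 of the 12 epithelial and mesothelial markers rose in DM, among them Upk1b by 5.57, Upk3b by 5.07, Lrrn4 by 4.12 and Wt1 by 4.05. For these marker lists too, 5.28% of all genes tested rose and 5.67% fell in DM against WT, and 5.59% and 3.56% in TM. The mesothelial marker Msln, at 11.34 in WT, fell by 1.43 in DM, while Epcam stayed under the array medians at 6.74 in WT, 6.40 in DM and 6.32 in TM. In TM, 0 of the 12 rose and 2 fell against WT, Msln by -3.61 and Krt19 by -1.81, with the count of rises also 0 at an unadjusted p under 0.05 in limma and in a Student comparison. In TM, 2 of the 7 smooth muscle and pericyte markers rose, Cnn1 by 3.47 and Cspg4 by 1.80, and 1 fell in DM. Their part in the changes of Tgfb2, Tgfb3, Ltbp3 and Inhba in DM, and of Fst and Ltbp2 in TM, was not tested. Of 6 endothelial, 6 leukocyte and 6 skeletal muscle markers, 0 were called in any comparison, also at an unadjusted p under 0.05 with the fold limit in limma and in a Student comparison.

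Of 26 other genes whose products store, process or release latent TGF-β, 5 rose and 3 fell in DM, and 6 rose and 3 fell in TM, against WT. Their median difference was 0.02 in DM and 0.11 in TM. For this and the next lists, the shares over all genes tested were 5.28% higher and 5.67% lower in DM than WT. In TM against WT they were 5.59% and 3.56%. Lrrc32, which encodes GARP, a protein that displays latent TGF-β on the cell surface, rose by 0.76 in DM and 3.32 in TM (adjusted p = 1.38e-05 and 1.81e-11 from limma). Dcn, which encodes decorin, a matrix proteoglycan that binds TGF-β, rose by 1.14 and 1.83, although its 3 DM values are identical, and it is also one of the fibroblast markers. Plau, which encodes the plasminogen activator urokinase, fell by 1.87 in DM and differed by -0.34 in TM without a call. Adamts1, which encodes a matrix protease, fell by 0.78 in DM and rose by 0.74 in TM.

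Between the mutants, 8 of the 26 rose and 2 fell in TM relative to DM, among them Lrrc32 by 2.56, Plau by 1.54 and Adamts1 by 1.52. Over all genes, 4.68% rose and 3.61% fell in TM relative to DM. Of the 15 other ligands of the activin receptors and their extracellular inhibitors, 1 rose in DM and 0 fell, and in TM 1 rose and 1 fell, the counts of 0 being also 0 at an unadjusted p under 0.05 with the fold limit. Bambi, a decoy receptor of this branch, rose by 0.87 in DM and 1.41 in TM. Fstl3, a relative of follistatin that also binds activin, fell by 0.71 in TM and differed by -0.39 in DM without a call, whereas Fst rose in TM. Between the mutants 0 of the 15 were called, also at an unadjusted p in limma.

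Of 18 receptors, co-receptors and SMADs, 1 rose and 1 fell in DM, and 3 rose and 0 fell in TM, against WT, that 0 holding at an unadjusted p in limma and in a Student comparison. The counts in DM were near the shares of all genes, 5.28% and 5.67%. Tgfbr1, the type I receptor of TGF-β, rose by 0.84 in DM and 0.75 in TM. Tgfbr3, the co-receptor betaglycan that presents TGF-β2 and binds inhibin, fell by 1.34 in DM and differed by 0.29 in TM without a call, which put it 1.63 higher in TM than in DM. Eng, the co-receptor endoglin, rose by 1.34 in TM and was at -0.01 in DM. Smad7, an inhibitory SMAD induced by the pathway, rose by 0.89 in TM and was at -0.04 in DM. The receptor kinases of activin that were measured were not called. Acvr1b was at -0.57 in both mutants, which passed the p threshold (adjusted p = 5.82e-05 in DM and 7.4e-05 in TM from limma) but fell just short of the fold limit.

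Of 15 genes widely used as readouts of TGF-β signalling, which include Ltbp2 of the present set and Smad7 of the list above, 1 rose and 4 fell in DM, and 4 rose and 2 fell in TM, against WT. Their median difference was -0.24 in DM, in which Tgfb2 and Tgfb3 were highest, and 0.16 in TM. Apart from Ltbp2, Tagln, which encodes an actin-binding protein of contractile cells, fell by 1.06 in DM and rose by 0.72 in TM. Bhlhe40, a transcriptional repressor, changed by -0.72 in DM and -1.31 in TM, and Tgfbi, a secreted adhesion protein, by -1.10 and -0.79, all 4 falls being called. Between the mutants 6 rose and 1 fell in TM relative to DM, with a median of 0.38. Tagln is also a smooth muscle gene.

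**Figure D4:**
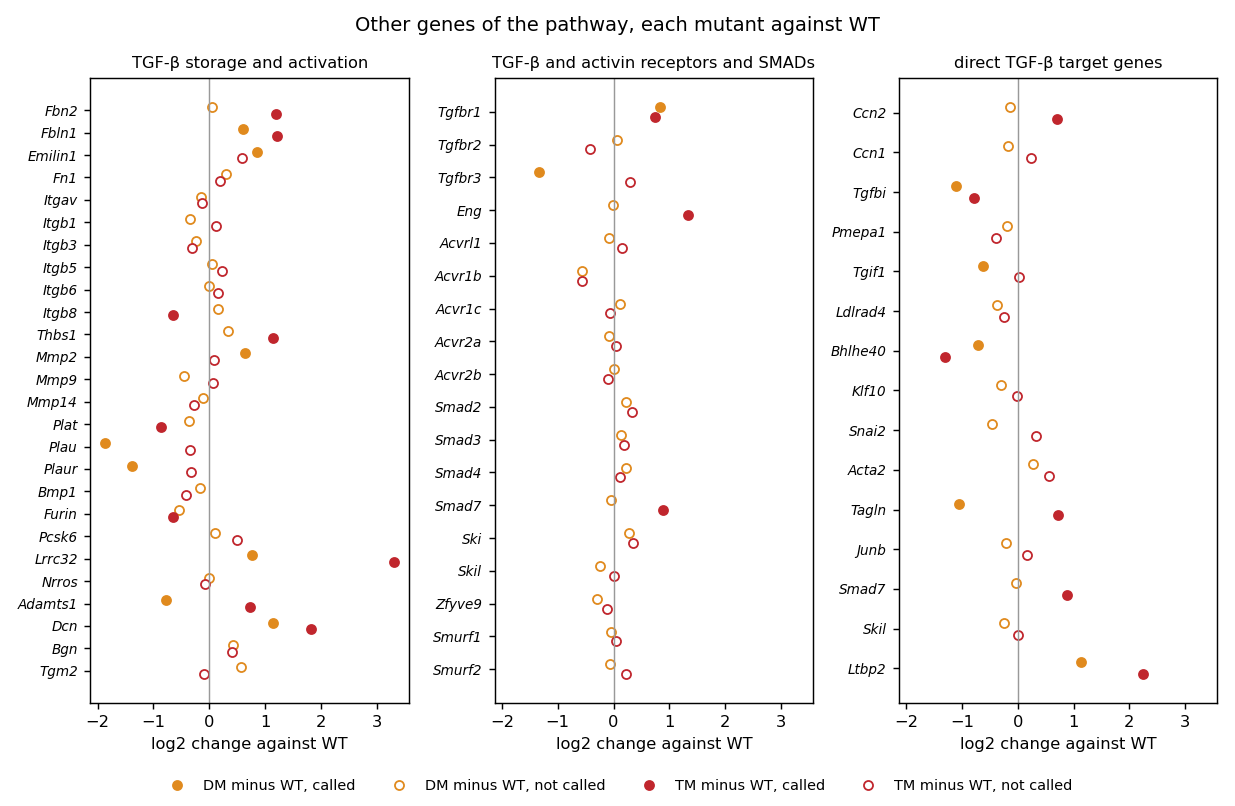
Log2 change against WT (horizontal axis) of other genes of the pathway in DM and TM MEFs, from means of 3 arrays per genotype; filled points were called by limma and open points were not. Lrrc32 lies farthest right at 3.32 in TM, and Plau farthest left at -1.87 in DM.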

How the data were processed

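RNA of 9 MEF arrays (3 WT, 3 DM, 3 TM) was profiled by the authors on Affymetrix Gene ST arrays. The deposited values are log2 levels per probe set, made by RMA according to the submitters' processing notes, which give no version. A real global shift between genotypes may thus have been removed before deposit, although array medians still lay between 7.62 and 7.72. The sources used here name no genome build. Of 35556 probe sets, 21789 had 1 gene symbol in the platform annotation, 1621 had several and 12146 were not listed. The brightest probe set was kept for the 999 genes with several, which left 19938 genes.

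One limma fit (version 3.58.1, R 4.3.3, lmFit and eBayes) took in the 9 arrays with 6 residual degrees of freedom, after a check on simulated data. Calls needed a Benjamini-Hochberg adjusted p under 0.05 and over 1.5-fold, the fold limit of the study's methods. The number of arrays limits the precision. Unequal change was tested by exact two-sided permutation of arrays. The members and gene lists were chosen with earlier results of these data known. Genes named are the 10 members, up to 4 called genes per pathway list with the largest changes, the nearest genes in pattern, the mutated genes and Xist. Acvr1b, and the individual markers, lie outside this rule and were chosen after their values were seen. Alternatives were other scalings, thresholds, variance models, probe set choices, an unpaired Student t-test, pairwise fits, the replicate block and leaving out each array. Protein sequences were not used here.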

Additional observations from a re-analysis of the deposited data

How the results depend on the processing

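The 15 called changes of the 10 genes stayed called with their direction in all 270 refits, over 18 settings each. Some refits could not alter a log2 change, since each gene had 1 probe set and variance models leave the difference as it is. An array of a genotype outside the comparison does not enter the difference either. Of the 6 counts of higher and lower genes, only those below moved by over 1.5 times. With no fold limit, genes lower in DM than WT numbered 4 rather than 1, and those lower in TM than DM 4 rather than 2. With a 2-fold limit, those lower in TM than WT numbered 0 rather than 1 in limma, also at an unadjusted p, and those lower in TM than DM 1 rather than 2. Changes near 0 turned sign: with median centring, Inhbb was at -0.00437 and Fst at -0.02 in DM against WT, and with cyclic loess Ltbp1 was at 0.02 in TM against WT. Leaving out 1 array at a time gave -0.01 to 0.13 for Inhbb in DM against WT, where WT replicate 3 turned the sign, and -0.00408 to 0.12 for Ltbp3 in TM against WT, where TM replicate 1 did. None of these was called. The small differences of Tgfb1 and Ltbp1 in DM against WT depended on the scaling. With quantile normalization their adjusted p from limma was 0.0905 and 0.208, and with cyclic loess 0.106 and 0.333, above the threshold. With median centring it was 0.00723 and 0.00443. An unpaired Student t-test with the fold limit gave 4 higher and 1 lower in each mutant against WT, and 3 and 2 in TM against DM. These counts held at an unadjusted p under 0.05 and after Benjamini-Hochberg adjustment. It used RMA values only, whereas the study's array calls had to hold under PLIER as well. With the replicate block the counts were 4 and 1, 4 and 1, and 3 and 2, as without it. Same-numbered arrays had correlations of their deviations between -0.239 and 0.168. Of 9 arrays, 0 correlated best with their own number in both other genotypes, so no pairing by number was seen. Whether same-numbered arrays shared a preparation was not tested. The lower signal of Inhbb, 0.48 above the array median at its lowest, limits what could be seen of it.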

Other observations

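The genes whose pattern over the 9 arrays was nearest to each called member were listed by Euclidean distance of log2 levels after each gene's mean was subtracted. These distances describe genes of the same arrays and share their genotype steps. Rerg, a small GTPase of the RAS superfamily, was nearest to Tgfb2 (distance 0.438), with differences from WT of 3.27 in DM and 1.28 in TM. Sox5, a transcription factor of cartilage, was nearest to Tgfb3 (distance 0.208), at 1.20 and 0.83. Ptx3, a secreted pentraxin, was nearest to Ltbp2 (distance 0.347), at 1.35 and 2.44, and Hoxb2 followed at 1.05 and 1.97.

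Osgin1 was nearest to Ltbp3 (distance 0.195), at 0.81 in DM and 0.13 in TM, and Myo7a, an unconventional myosin, to Ltbp4 (distance 0.134), at -0.28 and -0.70. Prcp, a lysosomal carboxypeptidase, was nearest to Inhba (distance 0.188), at -1.45 in DM and 0.23 in TM. Gpm6b, a membrane proteolipid, was nearest to Fst (distance 0.252), at 0.07 and 2.89, followed by Pappa, a protease of insulin-like growth factor binding proteins, at -0.02 and 2.84, and by Id4, an inhibitor of helix-loop-helix factors, at 0.12 and 2.89.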
